A study of Mus musculus with 8 samples.

Results

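Ugt8a, Prr18, Pdgfra and Gpr17 are 4 genes of the oligodendrocyte lineage, the cells that wrap axons in myelin. They were chosen by gene symbol and are described here in total brain of mice with Cstf2 D50A and of their wild-type littermates. All 4 are among the 7951 genes of a deposited table of reads at a proximal and a distal polyadenylation site within the 3′-most exon. Ugt8a is also 1 of the 6147 genes of a second table, which sets reads ending in an upstream exon beside reads ending in the 3′-most exon. All 4 genes passed the filter on low counts that kept 7876 pairs of the first table. The genes were proposed after genotype differences in these libraries were known. Ugt8a and Prr18 were among the pairs that DESeq2 called for site use, and Pdgfra was among the genes it called for level. Every comparison of the genotypes for the 4 genes is therefore a description, given with no test.

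The study took total brain on postnatal day 50 from 3 wild-type mice and 5 mice carrying Cstf2 D50A. The wild types were littermates within the same colony, a congenic strain on the C57BL/6NCrl background, and neither genotype received a treatment. CSTF2 is the cleavage stimulation factor subunit that binds RNA downstream of the cleavage site, and the mutation replaces an aspartate with alanine in its RNA recognition motif. The labels name no batch, give no sex and do not say whether the mutants were hemizygous or homozygous. Each library is 1 animal and is named here by its genotype and a number. The first table held between 9616953 and 17530761 reads per library. Levels are given in CPM, the reads of a site or gene scaled to a common library size, or as its log2. CPM of a site and log2 CPM of the sum of both sites use TMM-scaled library sizes, whereas summed CPM of marker lists and CPM of the second table use the table's total. The level of Cstf2 itself averaged 8.52 ± 0.129 log2 CPM in wild types against 8.52 ± 0.146 in mutants (SD, n = 3 and 5). This level does not check the labels, because the mutation is a single-residue exchange.

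Oligodendrocytes arise from precursor cells that divide in response to platelet-derived growth factor, then commit, stop dividing and build myelin. Pdgfra encodes the receptor through which PDGF-A acts on precursors. Gpr17 encodes a G protein-coupled receptor that appears in committed precursors and is lost before myelination. Ugt8a encodes the enzyme that joins galactose to ceramide, the step that makes the main galactolipid of myelin. Prr18 encodes a proline-rich protein whose transcript is enriched in myelinating oligodendrocytes. A gene with a pair of polyadenylation sites in its last exon makes mRNAs with the same coding sequence and a shorter or a longer end. The distal share below is the percentage of the reads of a pair that lie at the site farther from the transcription start. The sequence around the sites is not shown, since no genome of the mm9 build, in which the positions are given, was used here.

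Ugt8a reads lay nearly all at the proximal site in every library, and the small distal share was higher in each mutant than in each wild type. Its sites are at positions 125568428 and 125563727 (mm9, minus strand), 4701 bases apart, and RefSeq places the gene on chromosome 3. This distance is larger than that of 94.0% of the tested pairs, whose median is 626 bases. The distal share was 1.08%, 1.00% and 2.11% in wild type 1, 2 and 3, against 6.49%, 8.18%, 6.89%, 5.80% and 3.61% in mutant 1 to 5. Wild type 3 was the highest of its genotype and mutant 5 the lowest of its own. The means were 1.40 ± 0.617% and 6.19 ± 1.69% (SD, n = 3 and 5), a difference of 4.79 percentage points.

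These shares rest on few distal reads of Ugt8a: 7, 11 and 25 in wild type 1, 2 and 3, against 85, 103, 61, 111 and 23 in mutant 1 to 5. Exact binomial 95% intervals, which cover counting error only, ran from 2.30% to 5.36% in mutant 5 and from 1.37% to 3.10% in wild type 3, so these neighbours overlapped. In mutant 1 to 4 the lowest lower bound was 4.79%. Scaled for depth, the distal site of Ugt8a gave 0.783, 0.657 and 2.05 CPM in wild type and 8.02, 8.29, 4.85, 7.89 and 2.06 CPM in the mutants. Mutant 5 and wild type 3 were thus nearly level at the distal site, while the other 4 mutants lay above both. The proximal site differed less, at 77.1 ± 15.8 CPM in wild types against 91.5 ± 31.3 CPM in mutants (SD, n = 3 and 5). The mean of the distal site was 5.35 times as high in mutants as in wild type, and that of the proximal site 1.19 times.

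For Ugt8a the second table gives another view. Reads in the 3′-most exon made up 90.3%, 92.4% and 94.7% in wild types against 94.5%, 93.8%, 93.1%, 95.7% and 91.2% in the mutants, so the genotypes overlapped. Reads in the upstream exon stood at 8.77 ± 1.96 CPM in wild types against 8.73 ± 1.16 CPM in mutants (SD, n = 3 and 5). The 2 tables share reads: the proximal and distal sites of Ugt8a together held between 89.1% and 97.0% of the reads counted for its 3′-most exon.

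Prr18 used mainly its distal site, and again each mutant had a higher distal share than each wild type. Its sites are at 8536220 and 8536978 (mm9, plus strand), 758 bases apart, on chromosome 17. The distal share was 86.7%, 90.4% and 92.6% in wild type 1, 2 and 3, against 94.8%, 96.1%, 95.2%, 96.2% and 96.2% in mutant 1 to 5. The mutants lay close together and the wild types were spread more widely, with means of 95.7 ± 0.668% and 89.9 ± 2.99% (SD, n = 5 and 3). Intervals of neighbours overlapped here too, from 90.6% to 94.3% in wild type 3 and from 93.5% to 95.9% in mutant 1. Wild type 1 and wild type 2 had few reads of Prr18, 248 and 293 in all, against 494 to 2371 in the mutants.

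The level of Prr18 varied over a wide range. It was 4.80, 4.14 and 6.13 log2 CPM in wild type 1, 2 and 3, against 7.10, 7.08, 6.19, 7.40 and 5.47 in mutant 1 to 5. The genotypes overlapped, as mutant 5 lay between wild type 1 and wild type 3 while the other 4 mutants lay above all wild types. The means of 5.02 ± 1.01 and 6.65 ± 0.797 log2 CPM (SD, n = 3 and 5) differ by 1.63, or 3.09-fold. The distal site of Prr18 averaged 34.8 ± 26.1 CPM in wild types against 106.9 ± 49.2 CPM in mutants, and the proximal site 3.51 ± 1.75 and 4.79 ± 2.20 CPM. As a fold, the site of Prr18 that differed more between the genotypes was thus the main one, whereas for Ugt8a it was the minor one.

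Prr18 is the member whose level varied most, so its promoter windows, 250 bases before to 50 bases after each annotated start, are shown from RefSeq (GRCm38.p6). The first lies at chr17:8340156-8340455 and the second at chr17:8340489-8340788, both on the plus strand. Capitals mark ACAATG or ACAAAG, on either strand, which are forms of the core bound by SOX factors such as SOX10, a regulator of the oligodendrocyte lineage.
Prr18 start 1: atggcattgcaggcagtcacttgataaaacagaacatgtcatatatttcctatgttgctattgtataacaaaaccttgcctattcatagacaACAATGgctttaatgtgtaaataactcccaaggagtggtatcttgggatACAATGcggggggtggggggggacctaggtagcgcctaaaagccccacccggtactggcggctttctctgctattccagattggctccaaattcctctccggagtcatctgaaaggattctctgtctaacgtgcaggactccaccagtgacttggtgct
Prr18 start 2: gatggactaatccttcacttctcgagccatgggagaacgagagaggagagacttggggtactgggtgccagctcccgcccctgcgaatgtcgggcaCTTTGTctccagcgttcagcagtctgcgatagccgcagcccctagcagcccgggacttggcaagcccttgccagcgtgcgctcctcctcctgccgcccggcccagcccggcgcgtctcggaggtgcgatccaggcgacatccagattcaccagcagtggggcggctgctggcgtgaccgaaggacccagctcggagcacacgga

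The first window of Prr18 holds ACAATG 2 times, beginning 158 and 109 bases before the start, and the second holds CTTTGT, the reverse complement of ACAAAG, 154 bases before it. ACAATG occurs in 12.6% and ACAAAG in 18.7% of 32851 RefSeq promoter windows of this length, so such matches are common. Neither is in the windows of Ugt8a and Pdgfra, and CAGCTG, an E-box form that OLIG factors can bind, is in none of the windows of the 3 genes, against 16.3% of all windows. A match is only a run of letters, and binding was not measured.

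The mean CPM of Pdgfra was 2.87 times as high in mutants as in wild types, again with mutant 5 beside the wild types. Its level was 3.13, 2.70 and 3.94 log2 CPM in wild type 1, 2 and 3, against 5.04, 5.18, 4.94, 4.95 and 3.80 in mutant 1 to 5. Mutant 1 to 4 lay above all wild types, between 4.94 and 5.18, and mutant 5 lay just under wild type 3. The means were 3.26 ± 0.627 and 4.78 ± 0.556 (SD, n = 3 and 5).

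The sites of Pdgfra, at 75594076 and 75594226 (mm9, plus strand) on chromosome 5, are only 150 bases apart. The distal share was 79.2%, 55.7% and 73.5% in wild type 1, 2 and 3, against 90.2%, 85.5%, 92.7%, 76.9% and 77.9% in mutant 1 to 5. Mutant 4 and mutant 5 lay under wild type 1, so the genotypes overlapped. Wild type 1 had 77 reads of Pdgfra and its interval ran from 68.5% to 87.6%, and in wild type 2, with 106 reads, it ran from 45.7% to 65.3%. The distal site of Pdgfra averaged 7.16 ± 3.82 CPM in wild types against 24.7 ± 8.23 CPM in mutants, and the proximal site 2.87 ± 1.11 and 4.16 ± 1.98 CPM (SD, n = 3 and 5).

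Gpr17 followed Pdgfra in level, with a smaller difference and less spread. It stood at 4.13, 3.61 and 4.76 log2 CPM in wild type 1, 2 and 3, against 5.34, 5.33, 5.24, 5.38 and 4.66 in mutant 1 to 5. As for Pdgfra, mutant 1 to 4 lay close together above the wild types and mutant 5 lay just under wild type 3. The means of 4.16 ± 0.576 and 5.19 ± 0.298 (SD, n = 3 and 5) differ by 1.03, or 2.04-fold.

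Gpr17 was the only member of the 4 whose mean distal share was lower in mutants. Its sites, at 32102668 and 32100093 (mm9, minus strand), are 2575 bases apart. The distal share was 5.16%, 9.95% and 1.83% in wild type 1, 2 and 3, against 0.935%, 1.01%, 2.32%, 2.23% and 3.91% in mutant 1 to 5. Wild type 3 lay within the range of the mutants, and the distal reads of Gpr17 numbered only 4 to 20 per library. The distal site gave 0.860 ± 0.353 CPM in wild types against 0.713 ± 0.298 CPM in mutants, so the difference in level lay at the proximal site, with 17.9 ± 7.87 and 36.2 ± 6.86 CPM (SD, n = 3 and 5).

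**Figure D1:**
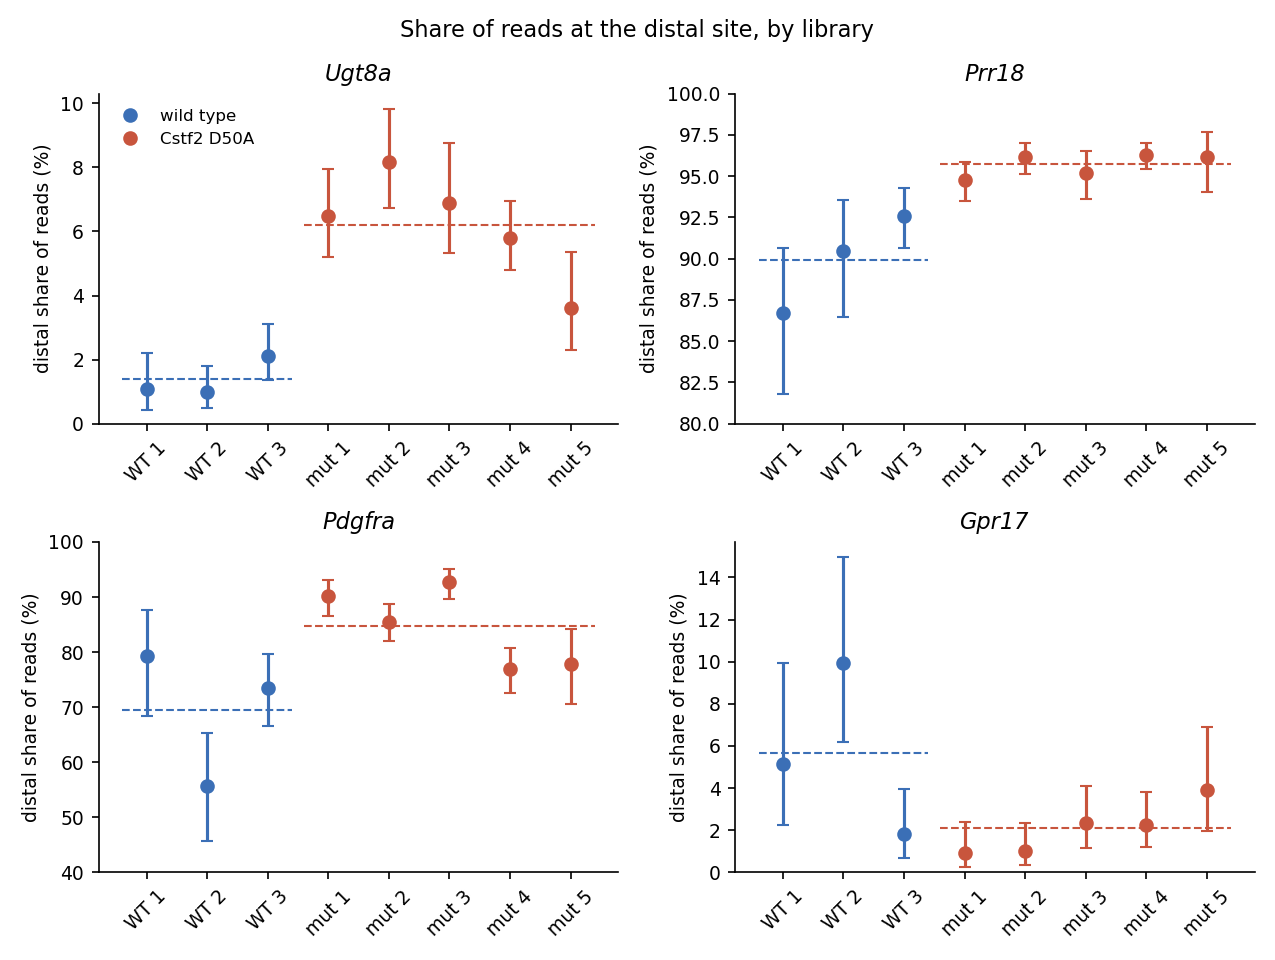
Distal share of reads (%) of each gene in the 8 libraries, with exact 95% binomial intervals and dashed lines at the genotype means; the axes of Prr18 and Pdgfra do not start at 0. All 5 mutants lie above all 3 wild types for Ugt8a and Prr18, and the genotypes overlap for Pdgfra and Gpr17.

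Counted over the 4 genes, the distal share of 2 (Ugt8a and Prr18) was higher in every mutant than in every wild type, and none was lower without overlap. Over all tested pairs 2.53% were higher and 1.63% lower in this way. In level, the genotypes overlapped for all 4 members, and over all tested genes 2.45% were higher and 2.31% lower in every mutant. Without wild type 1 the distal share of Pdgfra was also higher in every mutant (4.81% of all pairs), and without wild type 3 that of Gpr17 was lower in every mutant (9.59% of all pairs). Since the genotype contrast chose the members, nothing is read from these counts.

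**Figure D2:**
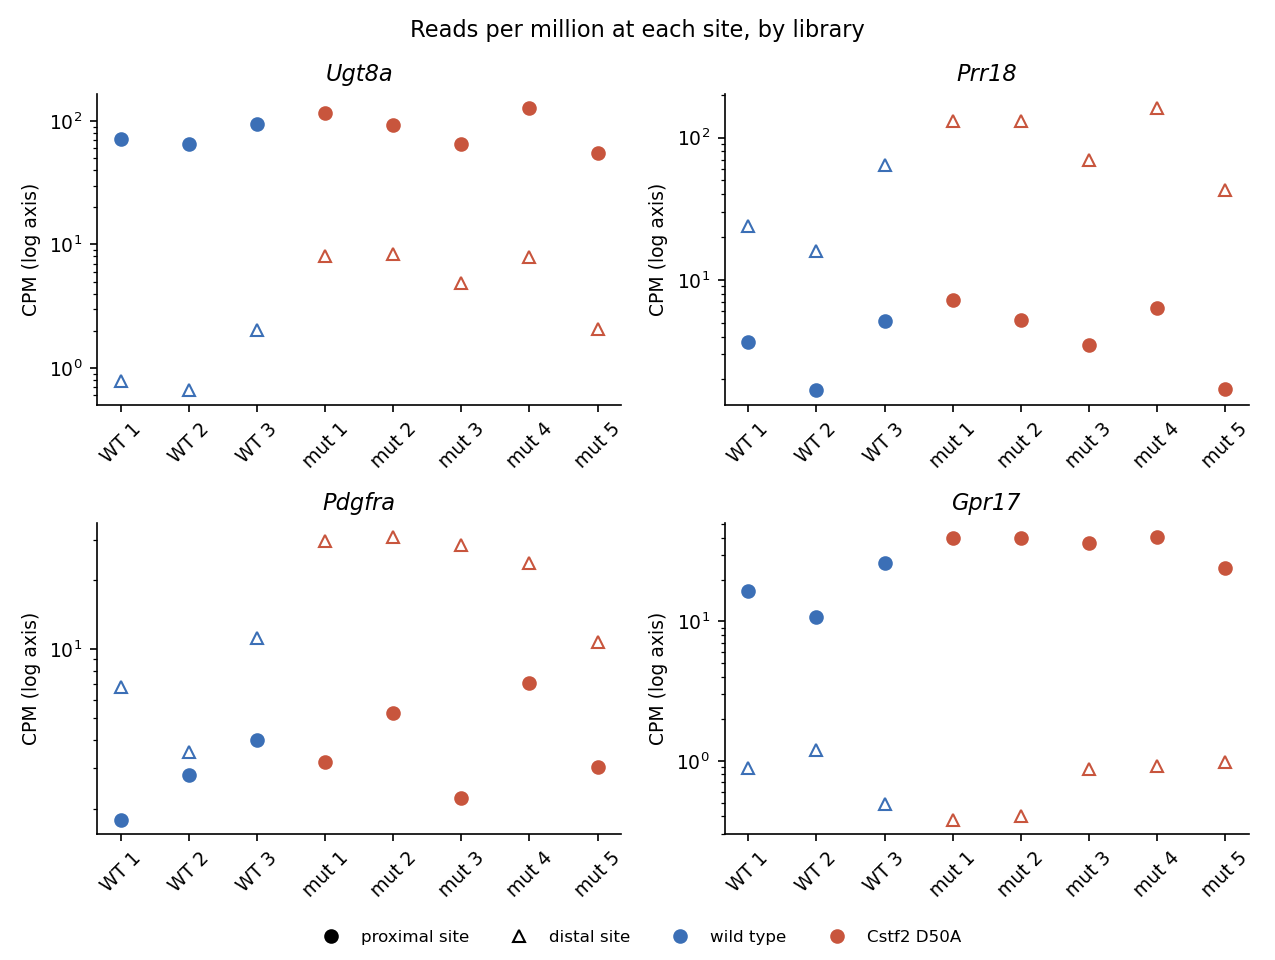
CPM (log axis) at the proximal site (filled circles) and the distal site (open triangles) of each gene in the 8 libraries. As a fold, the genotype means differ most at the distal site for Ugt8a, Prr18 and Pdgfra and at the proximal site for Gpr17.

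The contrast between myelin stage and precursor genes was not uniform within either stage. On the log2 CPM scale the mean difference between mutants and wild types was 0.26 for Ugt8a and 1.63 for Prr18, both of the myelin stage. It was 1.53 for Pdgfra and 1.03 for Gpr17. Both are grouped here as precursor genes, although Gpr17 belongs to committed precursors. The level of Ugt8a was 6.18, 6.04 and 6.60 in wild type 1, 2 and 3, against 6.95, 6.67, 6.14, 7.09 and 5.84 in mutant 1 to 5. Mutant 5 had the lowest and mutant 4 the highest level of Ugt8a, so the wild types lay inside the range of the mutants.

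The mean of Ugt8a and Prr18 minus that of Pdgfra and Gpr17 was 1.86, 1.94 and 2.02 log2 units in wild type 1, 2 and 3, against 1.84, 1.62, 1.07, 2.08 and 1.42 in mutant 1 to 5. Of the mutants, 4 lay below all wild types and mutant 4 lay above them. The means were 1.94 ± 0.0790 and 1.61 ± 0.386 (SD, n = 3 and 5). Taken gene by gene, Ugt8a minus Pdgfra was lower in all 5 mutants (1.20 to 2.14) than in all 3 wild types (2.67 to 3.34), and so was Ugt8a minus Gpr17 (0.90 to 1.71 against 1.85 to 2.43). Prr18 minus Pdgfra overlapped, at 1.77 ± 0.384 in wild types against 1.87 ± 0.446 in mutants. Prr18 minus Gpr17 overlapped too, at 0.86 ± 0.448 and 1.46 ± 0.542, and its mean was higher in mutants, opposite to the Ugt8a pairs. Within the myelin stage, Ugt8a minus Prr18 was 1.25 ± 0.718 in wild types against -0.11 ± 0.303 in mutants without overlap. Pdgfra minus Gpr17 overlapped, at -0.91 ± 0.0882 and -0.41 ± 0.272. The genotype contrast chose the members, and the share of all pairs of genes separated in this way was not computed. Nothing is therefore read from these separations.

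Markers of cerebellar granule cells were lower in mutant 1 to 4, the libraries in which Prr18, Pdgfra and Gpr17 were above all wild types. Ugt8a did not follow this split, as mutant 3 lay within the range of the wild types. The 8 measured of 10 granule cell markers summed to 1732 to 2111 CPM in wild types, to 432 to 451 CPM in mutant 1 to 4 and to 1742 CPM in mutant 5. The 4 measured of 8 Purkinje cell markers summed to 609.8 to 743.7 CPM in wild types and 434.8 to 600.4 CPM in mutants, with mutant 5 the highest mutant. edgeR called 0 granule cell markers, with 7 of 8 lower at an unadjusted p under 0.05, and DESeq2 called 0. Over all 7876 tested genes, 555 were lower at that unadjusted p. Without mutant 5, edgeR called 5 of the 8 lower in mutants (Cbln1, Cbln3, Zic1, Zic2 and Neurod1), and Car8 of the Purkinje cell markers, beside 0.863% of all tested genes called in either direction. No marker of any list was at 0 in any library. In level, mutant 5 lay among or below the wild types in all 4 members. In distal share it lay above the wild types for Ugt8a and Prr18, where its values were 3.61% and 96.2%. Without mutant 5, the levels of Prr18, Pdgfra and Gpr17 were higher in every mutant than in every wild type, as were those of 8.37% of all tested genes. Genotype and granule cell markers cannot be told apart among the 7 libraries left without mutant 5. The same 3 members were without overlap when wild type 3 was left out in place of mutant 5, beside 16.3% of all tested genes. The part of the cerebellar markers in the members' differences was not tested.

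**Figure D3:**
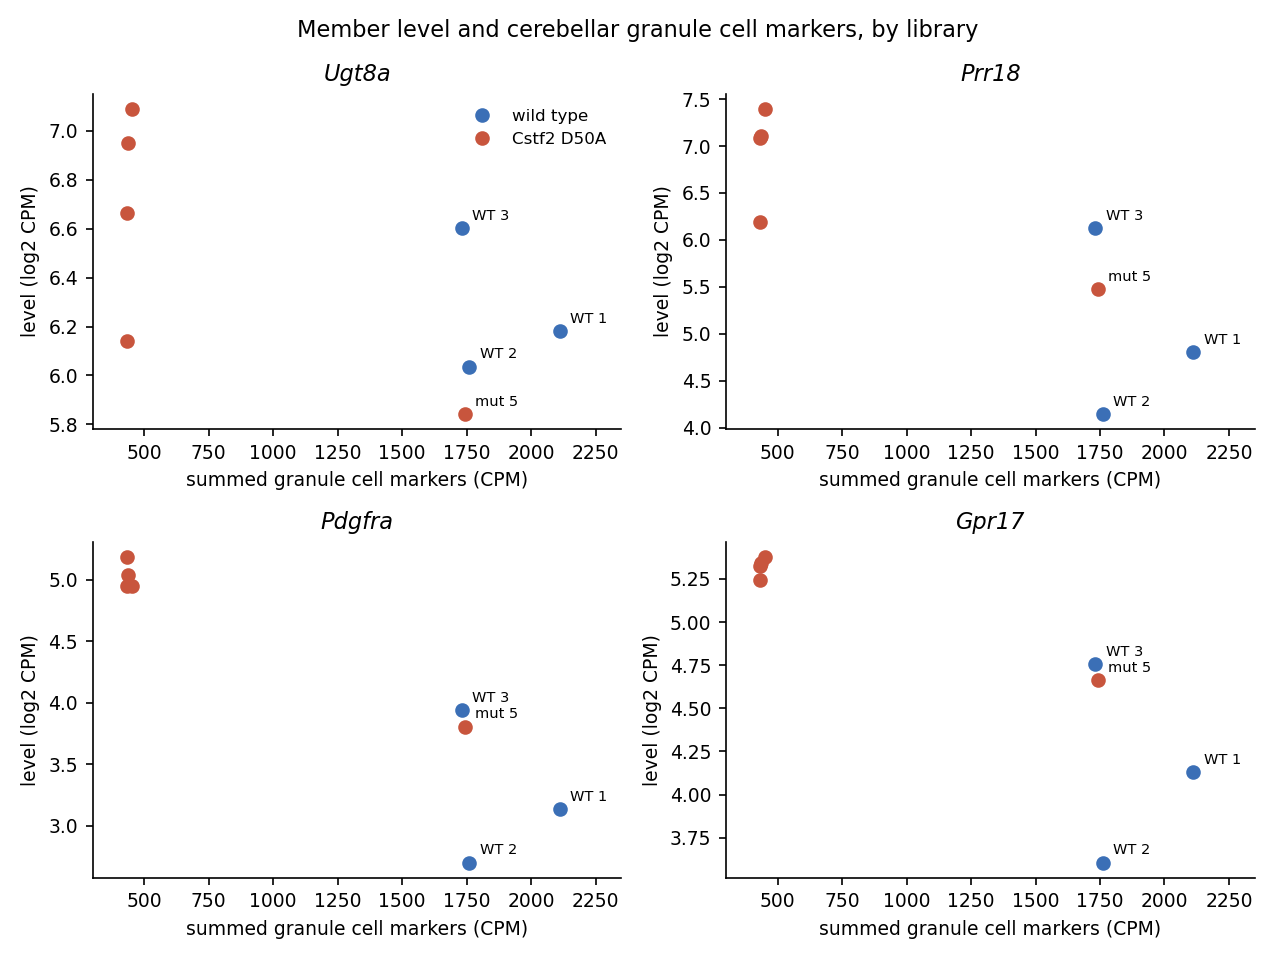
Level of each gene (log2 CPM) against the summed CPM of 8 granule cell markers in the 8 libraries. The 3 wild types and mutant 5 lie at 1732 to 2111 CPM on the horizontal axis, and the other 4 mutants at 432 to 451 CPM.

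Other cell types were followed in the same way. Endothelial and pericyte markers (5 of 10 measured) summed to 194.9, 180.1 and 420.1 CPM in wild type 1, 2 and 3, against 581.4, 502.5, 325.2, 631.2 and 228.6 CPM in mutant 1 to 5. Wild type 1 and 2 and mutant 5 were the lowest in these markers, as they were in Prr18, Pdgfra and Gpr17. Markers of vascular leptomeningeal cells, which also carry PDGF receptor alpha, summed to 92.9 to 108.2 CPM in wild types and 84.6 to 139.6 CPM in mutants (5 of 9 measured), a range that holds the wild types. Astrocyte markers (5 of 10) summed to 4091 to 4235 CPM and 3383 to 4004 CPM, microglial markers (4 of 10) to 238.1 to 277.9 CPM and 252.6 to 279.1 CPM, and excitatory neuron markers (7 of 8) to 6784 to 13549 CPM and 11872 to 14497 CPM. The astrocyte sums did not overlap between the genotypes, and a background for such sums was not computed. Aldoc, with the largest mean count of that list, had a log2 change of -0.56 (SE 0.189). Of its 5 tested genes, 2 had a log2 change above 0, and none was without overlap in level. The part of these markers in the results was not tested. In total brain, fewer cells of a type and less RNA per cell cannot be told apart.

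Within a genotype the levels of the members varied together. Deviations from the genotype mean of log2 CPM, in which the genotype difference plays no part, were -0.22, -0.88 and 1.10 for Prr18 in wild type 1, 2 and 3, against 0.45, 0.43, -0.46, 0.75 and -1.18 in mutant 1 to 5. Wild type 3 was the highest wild type and mutant 5 the lowest mutant for all 4 genes. Over the 8 libraries Pearson's r of these deviations was 0.95 between Pdgfra and Gpr17, 0.93 between Prr18 and Gpr17, 0.92 between Ugt8a and Prr18 and 0.74 between Ugt8a and Gpr17. Of 7376 genes compared, those nearest to Ugt8a were Rsl24d1, Atp1b3, Ubqln2, Serpinh1 and Ndufa4 (r from 0.987 to 0.991), and those nearest to Prr18 were Decr2, Zfp715, Rbm4b, Idh1 and Gnb2 (r from 0.994 to 0.998). For Pdgfra they included Amotl1, Plpbp, Plk2 and Plin4 (r from 0.983 to 0.989), and for Gpr17 Elk4, Psmb7, Fh1, Nprl3 and Kctd13 (r from 0.987 to 0.989). Each of these nearest genes had a higher r with its member than any other member had. The r over all genes compared was not summarized, so varying together is not shown to be particular to the members. All these values share the same libraries and carry no test.

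The spread within genotypes was large for the levels of the members and not for all of their site ratios. The SD of log2 CPM within genotypes was 0.874 for Prr18, 0.581 for Pdgfra, 0.467 for Ugt8a and 0.412 for Gpr17, beside a median of 0.248 over all tested genes, and that of Prr18 exceeded 98.3% of them. For the log2 ratio of distal to proximal reads it was 0.331 for Prr18, 0.501 for Ugt8a, 0.832 for Pdgfra and 1.00 for Gpr17, beside a median of 0.464. Prr18 was thus among the most variable genes in level while its site ratio varied less than the median pair. In wild type, the distal share of Ugt8a was lower than in all but 4.23% of pairs, and that of Prr18 was higher than in 80.8%.

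Among other myelin genes, none passed the test in level, and 3 of 22 had a log2 change above 0. These lists, which exclude the members, give the other genes of the lineage. Of 30 genes of myelin proteins and structure, 22 were tested; edgeR called 0 in level, with 0 above and 5 below 0 at an unadjusted p under 0.05, and DESeq2 called 0. edgeR called 0% of all tested genes in level and 0% of pairs in distal use, and DESeq2 called 0.33% and 0.267%. At an unadjusted p under 0.05, edgeR had 574 genes up and 555 down in level among all 7876 tested. In distal use it had 683 pairs toward distal and 335 toward proximal use. The unadjusted counts of every list are to be read beside these. The median log2 change in level was -0.18, from -0.28 without wild type 3 to -0.10 without wild type 1, beside 0.01 over all tested genes. Mbp, the basic protein that compacts myelin, stood at 11.5 ± 0.148 log2 CPM in wild types against 11.3 ± 0.139 in mutants (SD, n = 3 and 5). Cnp, a phosphodiesterase of non-compact myelin, stood at 9.35 ± 0.309 and 8.94 ± 0.263, and Tmem88b at 9.94 ± 0.322 and 9.81 ± 0.150. Tmem125, picked out after its values were seen, was the only gene of the list whose genotypes did not overlap. It stood at 4.23 ± 0.0415 and 4.07 ± 0.0935, beside 2.31% of all tested genes that were lower in every mutant. Prr18, assigned to the same stage, had a mean 1.63 higher in mutants.

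Distal use of the other myelin genes gave 0 calls by edgeR and DESeq2, with 1 gene toward each site at an unadjusted p under 0.05. The median log2 change in use was 0.22, beside 0.12 over all tested pairs; it was 0.10 without mutant 1 and 0.07 without wild type 2. The distal share of Mbp was 99.8 ± 0.0562% in wild types against 99.7 ± 0.0448% in mutants (SD, n = 3 and 5). No gene of this list was without overlap in distal share.

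Lipid synthesis genes, the pathway in which the Ugt8a enzyme works, were tested in 20 of 30 cases. edgeR called 0 in level, with 2 up and 1 down at an unadjusted p under 0.05, and 0 in distal use, with 2 toward each site; DESeq2 called 0 in both. The median log2 changes were -0.10 in level and 0.11 in use, and with single libraries left out they ran from -0.15 to -0.02 and from -0.01 to 0.21. Cers2, which makes the very long-chain ceramides of myelin and was picked out after its values were seen, stood at 6.30 ± 0.582 log2 CPM in wild types against 6.94 ± 0.237 in mutants without overlap (SD, n = 3 and 5; edgeR adjusted p = 0.343). Its distal share was 37.6 ± 6.48% and 29.9 ± 4.10%. Enpp2, the enzyme autotaxin, was also without overlap, at 7.70 ± 0.210 and 8.04 ± 0.0873 log2 CPM (edgeR adjusted p = 0.343). Cers2 and Enpp2 were thus higher in every mutant, as were 2.45% of all tested genes. The most abundant others were Cyp51, Cers5 and Fdft1, enzymes of sterol and ceramide synthesis, with log2 changes in level of -0.19, -0.08 and -0.06 (edgeR SE 0.158, 0.158 and 0.122).

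Among other precursor genes the median log2 change in level was 0.56, with 10 of 15 tested members above 0; the median was 0.28 without wild type 1 and 0.82 without wild type 3. edgeR called 0, with 5 up and 1 down at an unadjusted p under 0.05, beside 574 up and 555 down of all 7876 tested genes. DESeq2 called 0, and no member was without overlap. Ncan, a chondroitin sulfate proteoglycan also made by astrocytes and neurons, stood at 6.62 ± 0.682 log2 CPM in wild types against 7.80 ± 0.432 in mutants, and Cspg5, another proteoglycan, at 6.14 ± 1.29 and 7.28 ± 1.25 (SD, n = 3 and 5). Luzp2 and Cdo1 had log2 changes of -0.16 (SE 0.156) and -0.11 (SE 0.154). Cspg4, the NG2 proteoglycan that marks precursors beside Pdgfra, was picked out after its values were seen. It stood at a low level, 1.23 ± 0.613 and 2.36 ± 0.456 log2 CPM (edgeR log2 change 1.15, SE 0.355, adjusted p = 0.343). Megf11 of the same list, also picked out, went the other way, at 3.68 ± 0.107 and 2.69 ± 0.599 (edgeR log2 change -0.90, SE 0.322, adjusted p = 0.343). Summed over the list, wild types had 468.9, 557.8 and 842.4 CPM and mutants 1202, 1028, 742.0, 1102 and 559.1 CPM. Wild type 1 and 2 and mutant 5 were again the lowest. In distal use edgeR and DESeq2 called 0, with 2 toward distal and 0 toward proximal use at an unadjusted p under 0.05. Of all 7876 tested pairs, 683 were toward distal and 335 toward proximal use at that p. The median of the list was -0.21, which ran from -0.28 to 0.28 with single libraries left out.

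Genes of committed precursors and newly formed oligodendrocytes, the stage of Gpr17, had a median log2 change in level of -0.11 over 11 of 19 listed, which was -0.04 when scaled to table totals and ran from -0.16 to -0.06 with single libraries left out. edgeR and DESeq2 called 0, with 1 up and 2 down at an unadjusted p under 0.05. Bcas1 stood at 8.19 ± 0.342 and 7.87 ± 0.118 log2 CPM, Itpr2, a calcium release channel, at 6.01 ± 0.155 and 6.01 ± 0.198, and Rap2a, a small GTPase, at 4.87 ± 0.620 and 5.92 ± 0.411 (SD, n = 3 and 5). Chn2 was lower without overlap, at 8.63 ± 0.115 and 7.59 ± 0.522 (edgeR adjusted p = 0.343), beside 2.31% of all tested genes. The mutants had a median of 7.35 and a range of 7.26 to 8.51. The highest mutant thus lay just under the lowest wild type, at 8.56. Summed over the list, in which Chn2 had the largest mean count, wild types had 840.3 to 919.9 CPM and mutants 611.4 to 825.3 CPM. Without mutant 5, where granule cell markers go with genotype, edgeR called Chn2 and Cnksr3 of this list, Megf11 of the precursors and the transcription factors Chd7 and Myt1, all lower in mutants, beside 0.863% of all tested genes (17 higher and 51 lower). In distal use edgeR and DESeq2 called 0, with 2 toward distal and 1 toward proximal use at an unadjusted p under 0.05 and a median of -0.13.

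**Figure D4:**
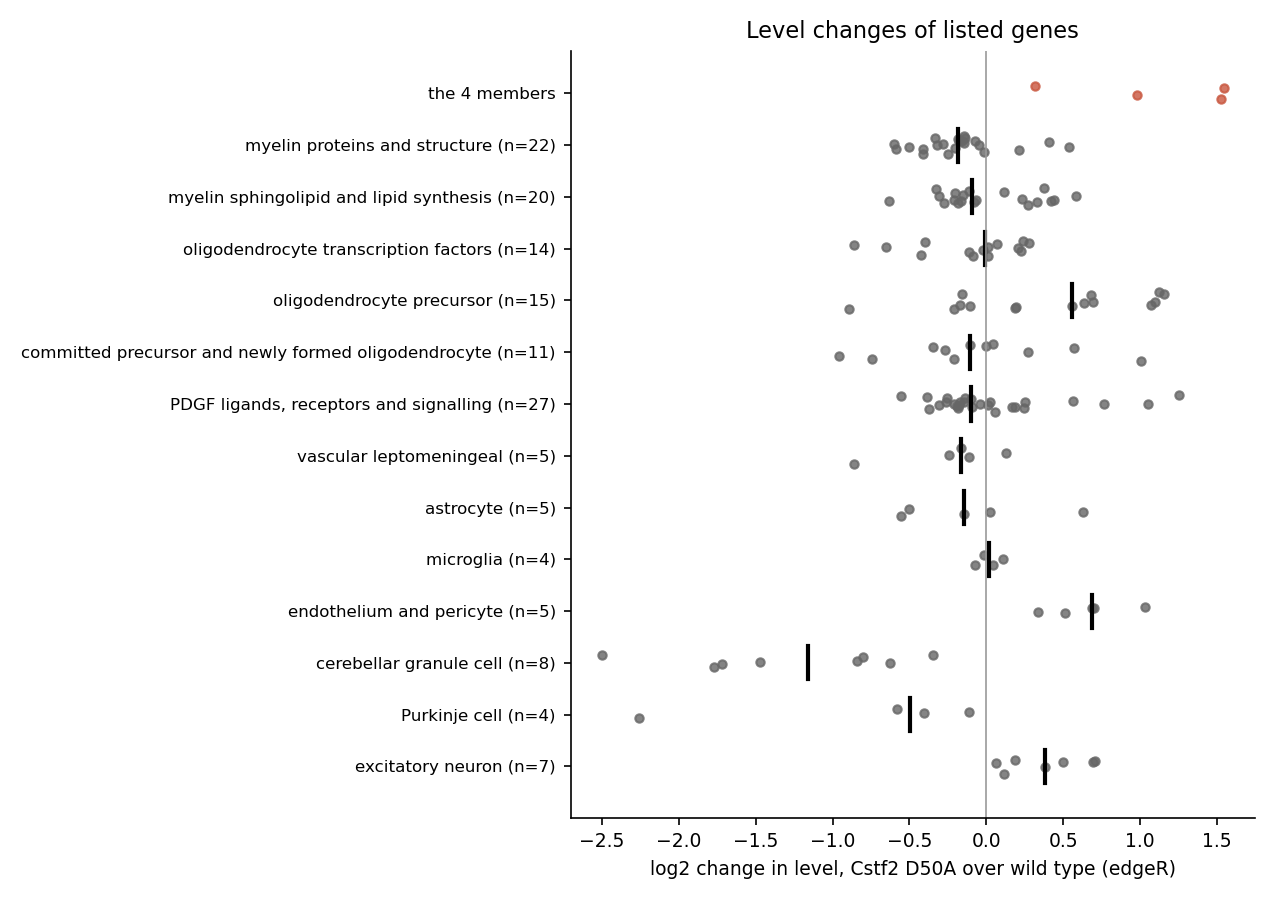
edgeR log2 change in level (mutant over wild type) of the 4 members and of each tested gene of the lists, with black bars at the list medians. The members lie above 0 and were chosen from this contrast; the precursor list has a median of 0.56 and the myelin protein list one of -0.18.

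Transcription factors of the lineage had a median log2 change in level of -0.01 over 14 of 25 listed, which was 0.06 when scaled to table totals and ran from -0.07 to 0.07 with single libraries left out. edgeR and DESeq2 called 0, with 0 up and 3 down at an unadjusted p under 0.05. Tcf7l2, which acts as oligodendrocytes begin to differentiate, stood at 6.63 ± 0.205 log2 CPM in wild types against 6.65 ± 0.0913 in mutants, and Id2, an inhibitor of differentiation, at 6.59 ± 0.236 and 6.80 ± 0.234 (SD, n = 3 and 5). The chromatin remodellers Smarca4 and Chd8 had log2 changes of 0.07 (SE 0.183) and 0.01 (SE 0.141). In distal use edgeR and DESeq2 called 0 of the listed factors, with 1 toward distal and 0 toward proximal use at an unadjusted p under 0.05. All 7876 tested pairs had 683 toward distal and 335 toward proximal use at that p.

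The genes through which the Pdgfra receptor signals had a median log2 change in level of -0.10 over 27 of 38 listed, which was -0.03 without wild type 1 and -0.03 when scaled to table totals. edgeR and DESeq2 called 0, with 2 up and 2 down at an unadjusted p under 0.05. Pdgfa, the ligand of the receptor, stood at 7.97 ± 0.172 log2 CPM in wild types against 7.88 ± 0.0997 in mutants, and its distal share was 11.2 ± 0.544% and 10.8 ± 0.947% (SD, n = 3 and 5). Of the relays, Pik3r1, a regulatory subunit of PI3 kinase, had a log2 change of -0.18 (SE 0.135), Akt2 one of -0.26 (SE 0.151) and Hras one of -0.37 (SE 0.163). Grb2, the adaptor that links receptors to RAS, was picked out after its values were seen as the only gene of this list without overlap in distal share, at 43.3 ± 2.11% and 53.5 ± 3.34% (edgeR log2 change 0.59, SE 0.177, adjusted p = 0.380). Over all tested pairs 2.53% were higher in this way. edgeR and DESeq2 called 0 of the list in distal use, with 3 toward distal and 0 toward proximal use at an unadjusted p under 0.05. Over all 7876 tested pairs, 683 were toward distal and 335 toward proximal use at that p.

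In the second table, edgeR called 0% of all 6001 tested pairs for use of the 3′-most exon, with 623 toward it and 218 away from it at an unadjusted p under 0.05, and DESeq2 called 5. edgeR called 0 of the tested genes of these 6 lists there. Without mutant 5 it called Fa2h, Sox8 and Cacng4 toward the 3′-most exon and Megf11 away from it, beside 3.93% of all tested pairs. Without wild type 3 it called Cacng4 toward and Megf11 away from that exon, beside 2.67% of all tested pairs.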

How the data were processed

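QuantSeq 3′ mRNA-Seq REV libraries, whose reads begin at poly(A) tails, were made from total RNA of total brain, per the labels' protocols. The 2 tables that the authors deposited hold unnormalized read counts for each site in each library, per the file headers, and site positions without a chromosome. FastQC 0.11.3, STAR 2.5, HTSeq 0.6.0 and mm9 are named, without their roles, in the submitters' processing notes. Site selection and strand use are not given in the sources used here: overlapping genes and close paralogs are uncertain. All value columns were matched to samples by the library code in the titles (0 left unused), and 97.8% of symbols matched RefSeq.

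Pairs averaging 20 or more reads, with 10 or more at each site, were tested (R 4.3.3) with edgeR 4.0.16 quasi-likelihood fits: site by genotype with the library as a block for site use, and genotype alone on summed sites with TMM scaling for level. p-values were adjusted by Benjamini-Hochberg over the table at 0.05. SE is the log2 change divided by the root of the F statistic. Levels are log2 CPM with a prior count of 2; summed marker CPM use table totals. Self-tests on simulated counts were run. Alternatives were DESeq2 1.42.0, limma 3.58.1 with voom, other scalings, no filter and each library left out. p-values measure the spread between animals.

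The members and lists were chosen with earlier results of these data known. Named list genes were the 4 with the largest mean count per list, any past the threshold, and for each member the 5 genes of 50 or more mean reads whose deviations from genotype means correlate most; others are said to be picked out. A few genes that this rule names are not reported here.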

Additional observations from a re-analysis of the deposited data

Results flagged for a closer look

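Dixon's gap test was applied to 38 quantities among the 5 mutants. By chance alone 1 library stands apart in about 1 of 20 groups. The 38 quantities share the same animals and some are computed from others, so their count cannot be set against that rate. In 6 of them 1 library stood apart, and in each it was mutant 5. Its levels of Pdgfra (3.80 log2 CPM) and Gpr17 (4.66 log2 CPM), and its proximal reads of Gpr17 (24.2 CPM), were the lowest of the mutants. Its summed markers of cerebellar granule cells (1742 CPM), Purkinje cells (600.4 CPM) and oligodendrocyte transcription factors (880.1 CPM) were the highest.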

How the results depend on the processing

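No paired analysis was possible because the labels give no replicate numbers shared between genotypes; the numbers used here follow record order. The members' differences kept their direction under the alternatives run for each: pooled reads for the shares; other scalings, another prior count and no filter for the levels, with the second table for Ugt8a; the larger site alone and another prior count for the stage contrast; and each library left out for all of them. With single libraries left out, the difference in distal share ran from 4.30 to 5.44 points for Ugt8a, 4.18 to 7.14 for Prr18, 8.29 to 20.1 for Pdgfra and -5.47 to -1.41 for Gpr17, and the difference in level from 0.13 to 0.44 log2 units for Ugt8a, 1.19 to 2.18 for Prr18, 1.25 to 1.87 for Pdgfra and 0.75 to 1.32 for Gpr17. Members without overlap numbered 2 to 3 in share and 0 to 3 in level, where 3 did without wild type 3 or without mutant 5, an alternative chosen after seeing the data. DESeq2 called 21 pairs in distal use, 26 genes in level and 5 pairs in 3′-most exon use, where edgeR called 0, and limma called 0 in each. With single libraries left out, edgeR called 0 to 1 pairs in distal use, 0 to 68 genes in level (68 without mutant 5), 0 to 236 in 3′-most exon use (160 without wild type 3, 236 without mutant 5) and 0 to 63 in level of the second table (63 without mutant 5); the cause was not tested. Scaling to table totals moved the share of genes with a higher level from 50.8% to 59.7%. The few distal reads of Ugt8a and Gpr17 limit the precision of their shares.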
